A study of Mus musculus with 6 samples.

Results

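The DNA repair genes examined here are 38 genes, grouped by the pathway in which each is best known to act: 9 of nucleotide excision repair, 14 of base excision and single-strand break repair, 1 of direct reversal (Mgmt), 2 of mismatch repair, 6 of double-strand break repair, 3 of the DNA damage checkpoint and 3 of translesion synthesis. Their members were all probe sets of the deposited value table, among 11811, whose platform gene symbol is 1 of these 38. This found 28 probe sets of 19 genes. The other 19 genes were not analysed here: Ercc2, Ddb2, Ogg1, Ung, Mpg, Neil1, Nthl1, Xrcc1, Lig1, Fen1, Parp2, Tdp1, Mgmt, Pms2, Nbn, Atm, Atr, Chek1 and Polh. Direct reversal and the checkpoint therefore had no member with a value. Of the 28 probe sets, 25, from 17 genes, reached a mean signal of 100 across all 6 arrays, the minimum for testing. Ercc1 and Mre11a stayed under that minimum.

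The samples were 6 total RNA preparations from mouse liver, each on 1 Affymetrix array. Of these, 3 came from mice labelled ATP7B KO (KO903, KO904 and KO905). Atp7b encodes a copper pump of the hepatocyte, and people without a working copy develop Wilson disease. The other 3 samples were from mice labelled wt (WT4, WT5 and WT6). For the knockout the labels cite an earlier description of the line and do not name the allele, and for neither group do they give age, sex, strain or treatment. Nor do they say whether every sample was its own animal, and p-values therefore reflect sample-to-sample spread only. In whole liver a change in the share of a cell type cannot be told apart from a change in RNA per cell. The series title places the knockout at an early stage of copper accumulation, and the comparison asked which repair transcripts differed between the genotypes at that stage.

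Cells repair DNA by several routes that differ in the damage they recognise. Nucleotide excision repair removes a short stretch of the strand around bulky lesions, base excision repair removes single altered bases such as those made by oxidation, mismatch repair corrects copying errors, and double-strand breaks are rejoined by end joining or copied from the sister chromatid by homologous recombination. Translesion polymerases copy past lesions that remain, and checkpoint kinases delay the cell cycle. Copper ions can take part in reactions that form oxygen radicals, and oxidised bases are mainly a substrate of base excision repair. Many genes of recombination and mismatch repair are transcribed mostly in dividing cells, which are few in adult liver.

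Promoter sequences are shown first for 3 members that differ in what these windows hold and in what the arrays measured. Each runs from 250 bases before to 50 bases after the gene's start, on the strand of the gene, from RefSeq on build GRCm38.p6. Brca1 (chr11:101551906-101552205, minus strand) is the member with a called difference, on 1 of its 2 probe sets. Msh6 (chr17:87974800-87975099, plus strand) and Xrcc6 (chr15:82016119-82016418, plus strand) are the tested members with a match to an E2F site, the site of factors that drive S phase genes. Capitals mark every match to the motifs searched.
Brca1: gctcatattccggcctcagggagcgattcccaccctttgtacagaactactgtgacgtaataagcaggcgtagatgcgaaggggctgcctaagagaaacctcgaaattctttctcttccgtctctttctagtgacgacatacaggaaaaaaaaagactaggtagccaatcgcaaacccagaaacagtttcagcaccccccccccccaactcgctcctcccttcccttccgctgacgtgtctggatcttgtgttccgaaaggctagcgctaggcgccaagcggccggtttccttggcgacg
Msh6: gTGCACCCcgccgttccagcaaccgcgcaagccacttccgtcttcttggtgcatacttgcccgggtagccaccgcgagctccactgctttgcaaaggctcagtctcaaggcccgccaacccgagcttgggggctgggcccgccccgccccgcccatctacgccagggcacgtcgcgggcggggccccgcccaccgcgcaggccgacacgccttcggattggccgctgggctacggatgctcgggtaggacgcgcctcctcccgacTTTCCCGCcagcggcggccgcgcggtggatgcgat
Xrcc6: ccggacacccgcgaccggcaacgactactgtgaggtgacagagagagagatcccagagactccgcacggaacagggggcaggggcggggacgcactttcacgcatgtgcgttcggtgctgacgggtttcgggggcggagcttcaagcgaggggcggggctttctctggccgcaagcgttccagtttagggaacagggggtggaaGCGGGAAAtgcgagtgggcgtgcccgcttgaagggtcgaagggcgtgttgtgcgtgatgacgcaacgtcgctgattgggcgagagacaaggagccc
The motifs were the metal response element core (TGCACNC or TGCGCNC), the E2F site (TTTCGCGC, TTTGGCGC, TTTCCCGC or TTTGCCGC) and the palindromic NRF1 consensus, given here by name, on both strands. The NRF1 letters end in TGCGC and can overlap the metal core. Of the 38 genes, 31 were found in the promoter table, which lists none of Xpc, Ercc3, Ddb2, Polb, Rad50, Nbn and Rev3l. The metal core was held by 16 of the 31 (51.6%), against 40% of 5441 tested genes with a promoter and 28.2% of all 27025 genes with one. The E2F letters were held by 4 (Lig1, Msh6, Nthl1 and Xrcc6), or 12.9%, against 4.43% of tested genes and 2.6% of all. The NRF1 letters were held by 2 (Polh and Tdp1), or 6.45%, against 2.37% and 1.07%. Neither of these genes had a value here. Among the 12 tested members with a promoter, the metal core was held by 6, the E2F letters by 2 and the NRF1 letters by 0. Of 86 other repair genes with a promoter (the wider list below), 38.4% held the metal core, 10.5% the E2F letters and 2.33% the NRF1 letters. The median GC content of the members' windows was 60%, against 60.7% for tested genes and 52.8% for all genes. The Brca1 window held none of these motifs. These shares describe letters in a window and say nothing of binding.

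In the knockout livers 1 of the 17 tested repair genes rose in limma and none fell (0 lower at an unadjusted p under 0.05). The gene that rose was Brca1, which guides homologous recombination at double-strand breaks, with a 2.10-fold increase on the log2(signal + 16) scale on 1 of its 2 probe sets. That probe set reached the minimum signal through its knockout values, and its call ended without KO904 or KO905. The other Brca1 probe set was under the minimum, and its groups overlapped. Nucleotide excision genes had positive differences in 5 of 6 cases, with a median log2 difference of 0.34, but none passed the test. At an unadjusted p under 0.05, 3 of the 6 were higher, against 10.1% of all tested genes. Other nucleotide excision genes, in the wider list below, did not share this direction: of 12 tested, 3 were above 0. With these and the members together, 8 of 18 were above 0, with a median of -0.029. Base excision genes had negative differences in 3 of 4 cases, with a median of -0.18, and none passed either (0 at an unadjusted p under 0.05). The test was limma on log2(signal + 16), with p-values adjusted by Benjamini-Hochberg across the 10620 probe sets tested and called under 0.05, and a gene with several tested probe sets is represented by the brightest.

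Across all 6604 tested genes, 3.94% were called, 2.14% as higher and 1.80% as lower, so 1 call among 17 genes is close to what the whole table shows. The groups did not overlap for 5 of the 17 genes, all higher in the knockout, where 14.0% of all tested genes were apart in that direction and 10.1% in the other. An unadjusted p under 0.05 was reached by 4 of the 17, all higher in the knockout. Of all tested genes 18.0% reached it in either direction and 10.1% as higher. The log2 difference was above 0 for 11 of 17 members (10 after quantile normalization or centring of each array) and for 56.4% of all tested genes, with medians of 0.12 and 0.035. Over all probe sets 440 (4.14%) were called. Without KO903, KO904, KO905, WT4 or WT6 this was 193, 175, 229, 252 or 270, and without WT5 it was 469.

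**Figure D1:**
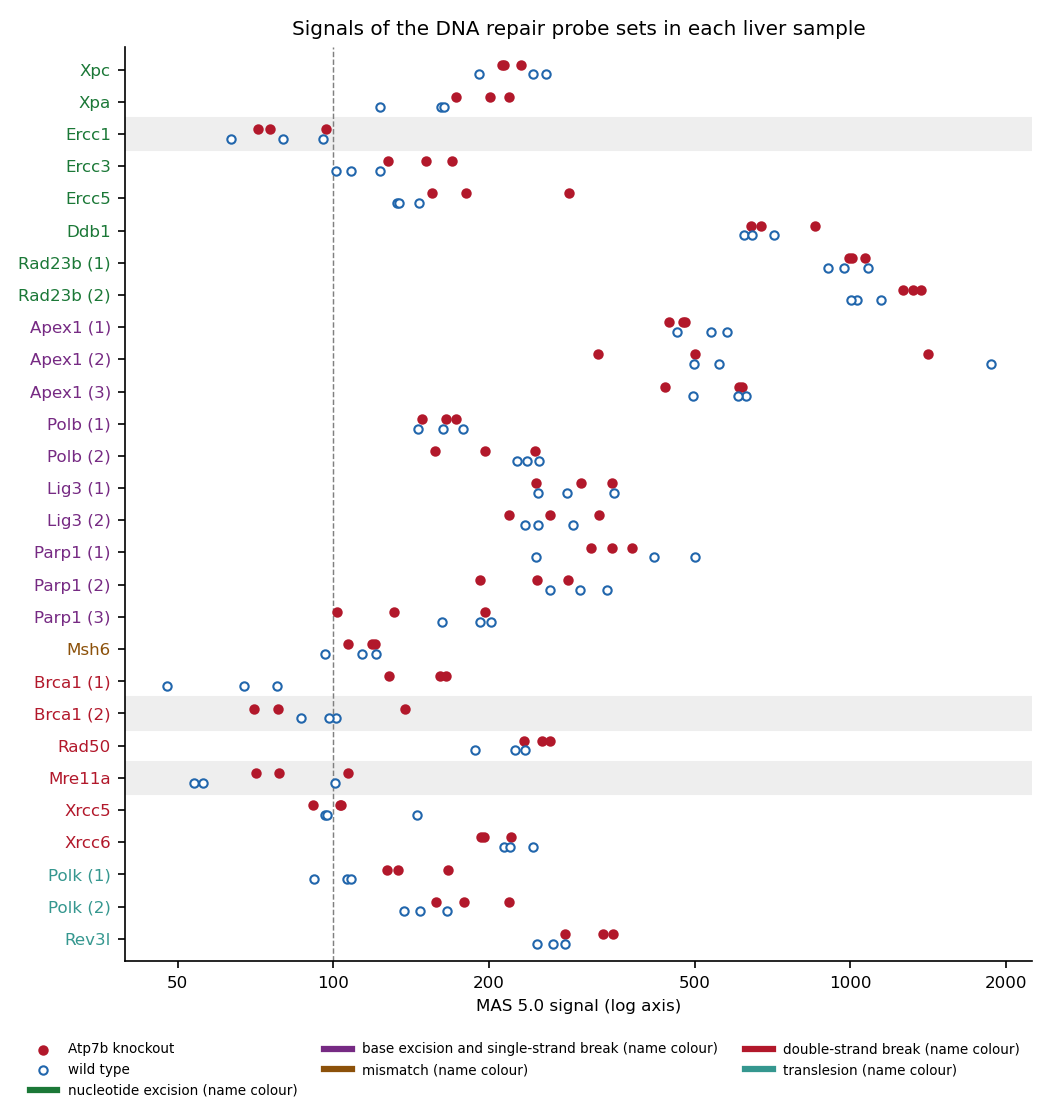
MAS 5.0 signal on a log axis for each of the 28 probe sets, with 1 point per liver sample (filled red for the 3 knockout samples, open blue for the 3 wild-type samples) and gene names coloured by pathway. Numbers in brackets count the probe sets of a gene, and grey rows are the 3 probe sets with a mean signal under 100 (dashed line), which were not tested. The first Brca1 probe set has all 3 knockout points to the right of the wild-type points, and the second does not.

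Brca1 was read by a pair of probe sets that disagreed. On 1424629_at its signal was 128 in KO903, 160.6 in KO904 and 165.2 in KO905, and 77.8 in WT4, 47.6 in WT5 and 67.2 in WT6. Every knockout value was above every wild-type value. The means were 151 ± 20.3 and 64.2 ± 15.3 (SD, n = 3 each), and the log2 difference was 1.07 ± 0.20 (SE; 95% interval 0.63 to 1.52; adjusted p = 0.0152 in limma). The exact two-sided permutation test gave p = 0.1, the smallest that 3 against 3 samples allow. This probe set had a mean signal of 107.7, so it passed the level of 100 through its knockout values.

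On the second Brca1 probe set, 1427698_at, the signal was 137.5, 78.3 and 70.2 in KO903, KO904 and KO905, and 86.7, 101.2 and 97.9 in WT4, WT5 and WT6. The groups overlapped, and KO903 alone lay above the wild-type samples. Its mean signal of 95.3 was below the level for testing, and in a fit with no such level its log2 difference was -0.045 ± 0.23 (SE; adjusted p = 0.949 in limma). With the mean over both probe sets and no minimum signal, a setting chosen after the data were seen, the Brca1 difference was 0.51 ± 0.16 (SE) and was not called (adjusted p = 0.11 in limma). The call of 1424629_at also ended without KO904 (adjusted p = 0.069) or KO905 (adjusted p = 0.0649), and at a minimum mean signal of 200 the probe set was not tested. Which parts of the transcript each probe set reads was not examined.

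**Figure D2:**
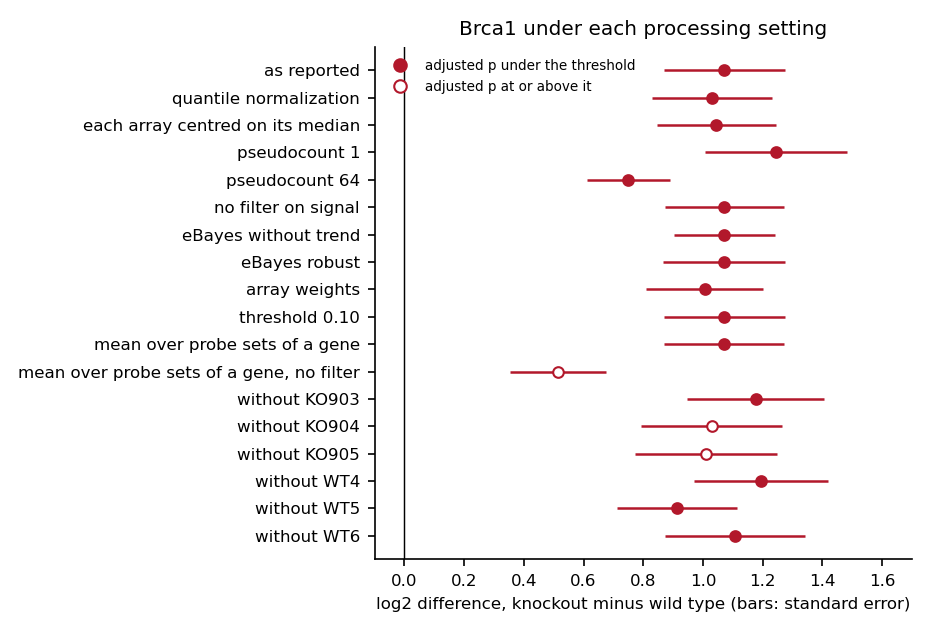
Log2 difference of Brca1, knockout minus wild type, with its standard error, as reported and under each processing setting in which Brca1 was tested. The difference stays above 0 in every row, from 0.51 to 1.24, and open circles mark the 3 settings in which the call ended.

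Other members of double-strand break repair did not pass the test. Rad50, which holds broken ends together in a complex with Mre11a and Nbn, stood at 262.6, 253 and 234.1 in KO903, KO904 and KO905 and at 224.4, 188 and 234.9 in WT4, WT5 and WT6. The groups overlapped through KO905 and WT6, and the log2 difference was 0.20 ± 0.15 (SE; adjusted p = 0.519 in limma). Mre11a, the nuclease of that complex, was not tested, with signals between 71 and 106.9 in the knockout and between 53.8 and 100.7 in wild type. Xrcc5 and Xrcc6 encode the Ku proteins, which bind broken ends for end joining. They had log2 differences of -0.14 ± 0.19 and -0.14 ± 0.14 (SE), with 95% intervals from -0.57 to 0.28 and from -0.45 to 0.17. Xrcc5 read 103.7, 103 and 91.2 in KO903, KO904 and KO905 and 96.5, 145.2 and 97.4 in WT4, WT5 and WT6. Its means were 99.3 in the knockout and 113 in wild type, so it reached the minimum signal through its wild-type values, of which WT5 was far the highest. Without WT5 the Xrcc5 difference was 0.028. The Ku intervals leave out a change of 2-fold in either direction.

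Of the 6 tested nucleotide excision genes, Xpa, Ercc3 and Ercc5 had the 3 highest log2 differences, between 0.37 and 0.50, and none passed the test. Xpa, which checks the lesion, had signals of 200.8, 218.4 and 172.7 in KO903, KO904 and KO905, against 161.6, 163.5 and 123.1 in WT4, WT5 and WT6. Ercc3, a helicase of transcription factor TFIIH that opens the strands, had 150.9, 127.7 and 169.5 against 108.1, 123.2 and 101.2. Ercc5, the nuclease that cuts on the 3' side of the lesion, had 155.4, 285.4 and 180.8 against 132.7, 134.1 and 146.7. For all 3 genes the groups did not overlap, by narrow margins, and KO904 stood far above the other Ercc5 values.

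The log2 differences were 0.37 ± 0.17 for Xpa, 0.38 ± 0.17 for Ercc3 and 0.50 ± 0.21 for Ercc5 (SE), with adjusted p-values of 0.28, 0.278 and 0.237 in limma. For Ercc5 the difference was 0.26 without KO904. The pathway's median of 0.34 was 0.12 at a minimum mean signal of 200 and 0.18 with the mean over a gene's probe sets and no minimum. Rad23b, which stabilises the damage sensor Xpc, had a pair of tested probe sets. The brighter, 1450903_at, read 1372, 1324.1 and 1263.8 in the knockout and 1030.3, 1004.6 and 1147.9 in wild type, which gave a difference of 0.31 ± 0.11 (SE; adjusted p = 0.157 in limma). The other, 1424222_s_at, overlapped between the groups, with a difference of 0.055 ± 0.12 (SE).

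The sensors of nucleotide excision repair showed smaller differences. Xpc, which finds distortions of the helix, stood between 212.2 and 231.1 in the knockout and between 191.4 and 257.5 in wild type, with a log2 difference of -0.061 ± 0.15 (SE; 95% interval -0.40 to 0.28). Ddb1, a subunit of the ultraviolet damage sensor and of a ubiquitin ligase, stood between 641.9 and 852.7 and between 623.8 and 710.5, with a difference of 0.12 ± 0.14 (SE). Both sensor genes overlapped between the groups. Ercc1, partner of the nuclease that cuts on the 5' side, was not tested, with signals from 71.4 to 97 in the knockout and from 63.3 to 95.6 in wild type.

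**Figure D3:**
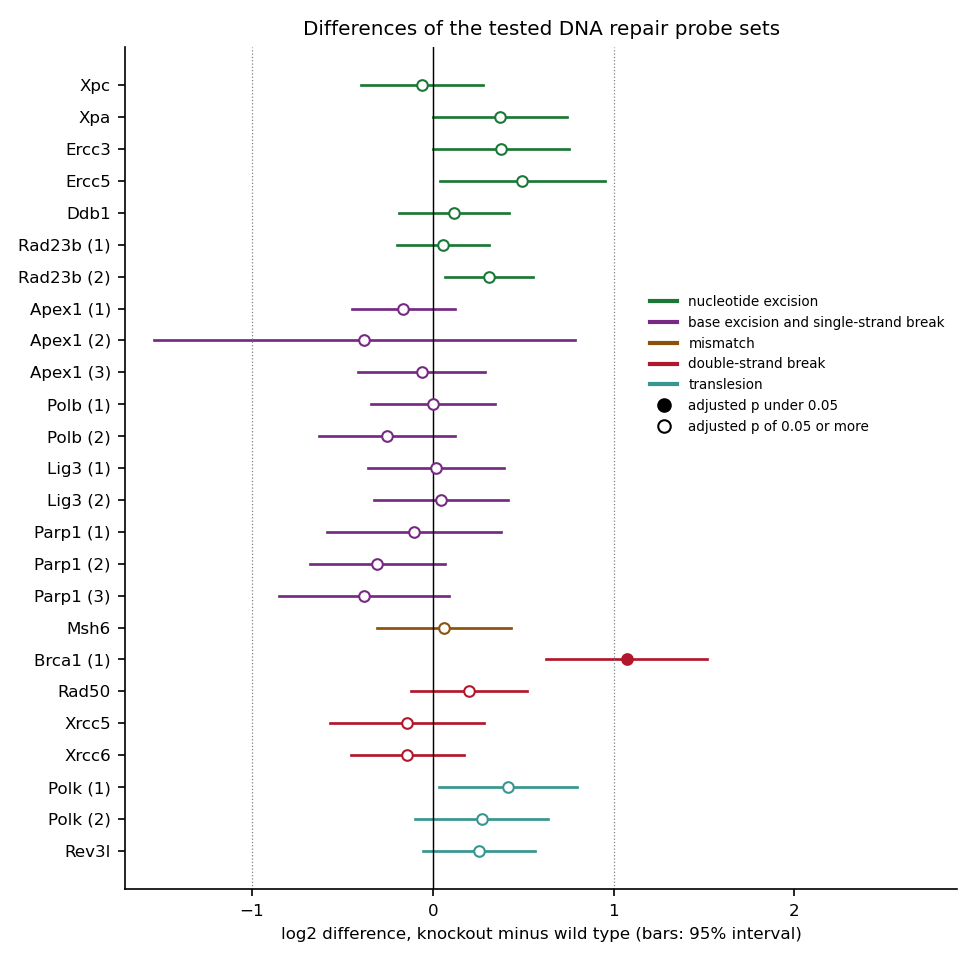
Log2 difference, knockout minus wild type, with its 95% interval for each of the 25 tested probe sets, coloured by pathway, with dotted lines at a 2-fold change. Only the Brca1 probe set is filled (adjusted p under 0.05), and the second Apex1 probe set has the widest interval, from -1.54 to 0.79.

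Base excision and single-strand break members lay near or below 0. Apex1, the nuclease that cuts where a base has been removed, had 3 tested probe sets. On 1416135_at it read 479.6, 446.7 and 473.6 in KO903, KO904 and KO905 and 577.9, 536.9 and 462.6 in WT4, WT5 and WT6, a log2 difference of -0.16 ± 0.13 (SE; adjusted p = 0.571 in limma). The brightest, 1437715_x_at, read 325.6, 501.2 and 1415.7 against 1869.2, 556.7 and 498.1, so that 1 sample of each genotype stood far above the rest. Its difference was -0.38 ± 0.53 (SE), and it was 0.22 without WT4 and 0.066 without KO903. The suffix x marks, by the maker's convention, a probe set with probes that can also match other transcripts. The third Apex1 probe set, 1456079_x_at, had a difference of -0.062 ± 0.16 (SE).

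Parp1 senses strand breaks and marks the site with chains of ADP-ribose. Its 3 probe sets had log2 differences of -0.11 ± 0.22, -0.31 ± 0.17 and -0.38 ± 0.21 (SE), all below 0 and none called (adjusted p from 0.382 to 0.854 in limma). On the brightest, 1422502_at, the wild-type values spread from 246.5 in WT6 to 501.8 in WT5 and enclosed all 3 knockout values. That difference was 0.10 without WT5 and -0.39 without WT6. Polb, the polymerase that fills the gap, had differences of -0.25 ± 0.17 and 0.0011 ± 0.16 (SE) on its 2 probe sets, the only member whose tested probe sets differed in sign. Lig3, the ligase that seals it, had 0.020 ± 0.17 and 0.044 ± 0.17 (SE). The median of -0.18 over the 4 genes was 0.058 without WT4 and -0.018 without KO903. The glycosylases that recognise oxidised bases were among the genes not analysed here.

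Mismatch repair was represented by Msh6, which recognises mismatched bases. It stood at 120.5, 118.8 and 106.8 in KO903, KO904 and KO905 and at 113.5, 120.9 and 96.5 in WT4, WT5 and WT6. The groups overlapped throughout, and the log2 difference was 0.060 ± 0.17 (SE; adjusted p = 0.894 in limma; 95% interval -0.31 to 0.43).

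Translesion members had small positive differences that did not pass the test. Polk, a polymerase that copies past bulky adducts, read 158, 179.1 and 218.7 in KO903, KO904 and KO905 against 146.9, 137 and 166 in WT4, WT5 and WT6 on its brighter probe set, 1449483_at. The groups overlapped through KO903 and WT6, and the log2 difference was 0.27 ± 0.17 (SE; adjusted p = 0.445 in limma). On 1419501_at the groups did not overlap, and the difference was 0.42 ± 0.17 (SE; adjusted p = 0.233 in limma). Rev3l, the catalytic subunit of polymerase zeta, read 348.2, 332.2 and 280.8 against 265.7, 281.1 and 248.1, a difference of 0.26 ± 0.14 (SE; adjusted p = 0.376 in limma). KO905 and WT5 were all but equal for Rev3l.

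For 15 of the 17 tested genes the 95% interval lay within a 2-fold change in both directions, and for 9 within a 1.5-fold change. The exceptions to the first count were Brca1 and Apex1. The same held of the 2-fold bound for 95.4% of all tested genes. The median standard error of the log2 difference was 0.17 for the members and 0.15 for all tested genes.

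The level of each pathway in each sample was described by the median, over its tested genes, of the log2 signal minus the mean of that gene. For nucleotide excision repair it was 0.21, 0.10 and 0.055 in KO903, KO904 and KO905 and -0.20, -0.097 and -0.13 in WT4, WT5 and WT6. For translesion synthesis it was 0.092, 0.14 and 0.16 in the knockout and between -0.15 and -0.11 in wild type. The groups were apart in these pathways, which hold 6 and 2 tested genes. Polk and Rev3l, the 2 translesion genes, each overlapped between the groups on the brightest probe set. For base excision it ranged from -0.30 to 0.12 in the knockout and from -0.27 to 0.22 in wild type, and for double-strand break repair from -0.053 to 0.11 and from -0.12 to -0.037, so that both overlapped. These values have no test of their own.

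**Figure D4:**
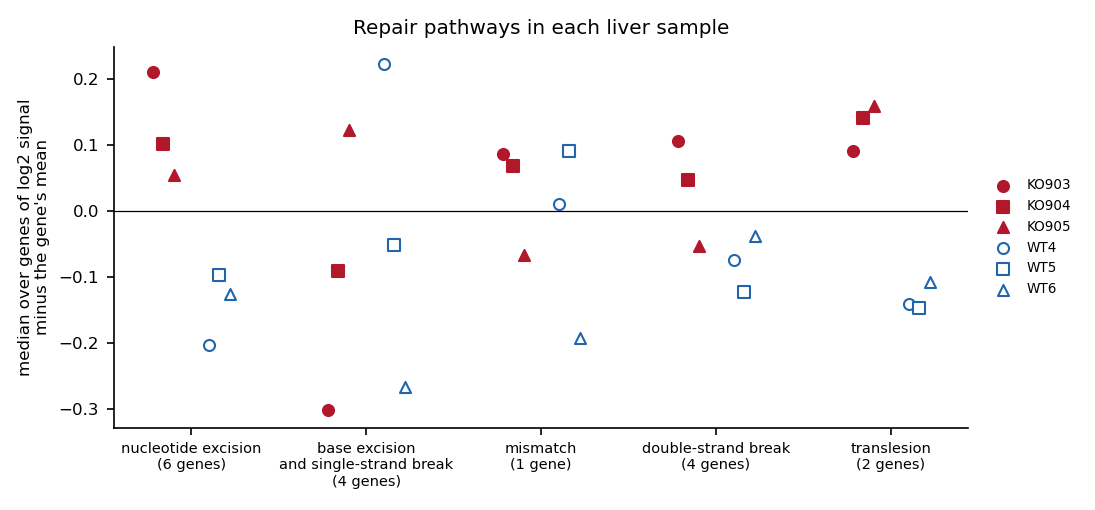
Median over the tested genes of a pathway of log2 signal minus the mean of that gene over the 6 samples, with 1 point per liver sample (filled red for knockout, open blue for wild type, shapes naming the sample). Knockout samples lie above wild-type samples for nucleotide excision (6 genes) and translesion (2 genes), and the genotypes overlap in the other 3 pathways.

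A wider list of 110 other repair genes, from the same pathways and interstrand crosslink repair, had 51 genes in the table and 46 tested. Of these, 2 rose (Rad51b and Mad2l2), 1 fell (Parp3) and 43 did not pass, with 23 differences above 0 and 23 below and a median of -0.011. The share called was again near that of all tested genes (3.94%). Groups did not overlap for 6 of the 46 genes higher and 4 lower, against 14.0% and 10.1% of all tested genes. Among nucleotide excision genes of this list, 3 of 12 had a difference above 0, with a median of -0.071, where the 6 members had 0.34. At an unadjusted p under 0.05, 0 of these 12 were higher and 2 were lower, Cul4a and Rpa1. Of all tested genes 18.0% reached that level in either direction. The log2 differences were -0.59 ± 0.17 for Cul4a and -0.48 ± 0.15 for Rpa1 (SE; adjusted p = 0.086 and 0.111 in limma), and the groups did not overlap for either gene. With members and other genes together, 8 of 18 nucleotide excision genes were above 0 (median -0.029), 2 of 9 base excision genes (median -0.23) and 8 of 11 double-strand break genes (median 0.20). For translesion synthesis 7 of 9 were above 0, with a median of 0.068, where the 2 members had 0.26.

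Parp3, a relative of Parp1 that acts at strand breaks, fell on its only probe set. It read 106.1, 75.2 and 110.7 in KO903, KO904 and KO905 and 226.9, 265.8 and 185.7 in WT4, WT5 and WT6, a log2 difference of -1.10 ± 0.19 (SE; adjusted p = 0.0104 in limma). The groups were far apart, and the call held without each sample in turn (adjusted p up to 0.0456). The mean signal was 97.33 in the knockout, under the minimum for testing, and 226.1 in wild type. Parp3 was therefore tested through its wild-type values. The probe set, 1426210_x_at, carries the suffix x described above.

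Rad51b, which acts in homologous recombination, read 518.4, 437.1 and 363.6 in the knockout and 295.9, 257.3 and 236.2 in wild type. The log2 difference was 0.70 ± 0.16 (SE; adjusted p = 0.0344 in limma). Its call ended without KO903, KO904, WT4, WT5 or WT6 (adjusted p = 0.136, 0.114, 0.053, 0.0607 and 0.0979). Mad2l2, the partner subunit of Rev3l in polymerase zeta, read 409.8, 359.8 and 336.6 against 208.5, 279 and 171.8, a difference of 0.73 ± 0.18 (SE; adjusted p = 0.0454 in limma). That call ended without KO903, KO904, KO905, WT4 or WT6 (adjusted p = 0.162, 0.128, 0.088, 0.124 and 0.122), after median centring of the arrays (0.0527) and with eBayes without a trend (0.0603).

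The checkpoint, for which no member had a value, had 6 tested genes in the wider list and no call in limma, with 2 at an unadjusted p under 0.05. The kinase gene Chek2 read 211.2, 185.7 and 175.2 in the knockout and 102.7, 141.7 and 128.1 in wild type, without overlap (log2 difference 0.57 ± 0.17 SE, adjusted p = 0.0927). Wee1, which restrains entry into mitosis, read 227.4, 309 and 245.4 against 506.2, 317.5 and 565.2 (log2 difference -0.76 ± 0.21 SE, adjusted p = 0.0653), and was called without WT5 (adjusted p = 0.00945) and with array weights (adjusted p = 0.0292). Brca2, which also acts in homologous recombination, had a difference of 0.14 ± 0.18 (SE; adjusted p = 0.75 in limma).

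**Figure D5:**
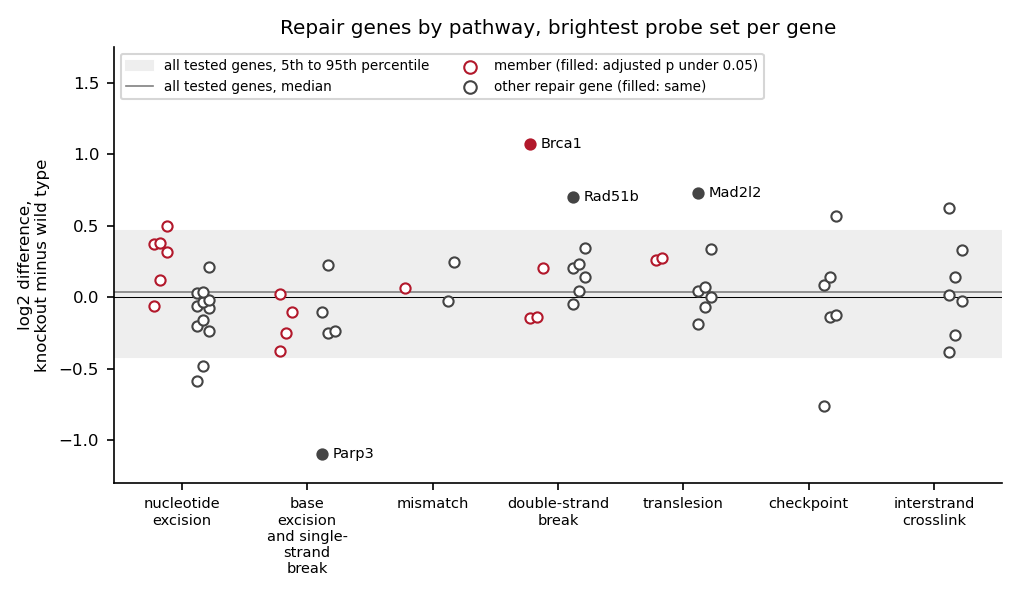
Log2 difference, knockout minus wild type, of each tested repair gene on its brightest probe set, by pathway, with members in red and the genes of the wider list in grey; filled points passed the test. The grey band spans the 5th to the 95th percentile of all 6604 tested genes, from -0.42 to 0.46, and the filled points are Brca1, Rad51b, Mad2l2 and Parp3.

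Other gene lists were read beside the members, and their part in the repair results was not tested. Signals were summed over every gene of a list with a value, tested or not. These sums overlapped between the genotypes for the S phase, hepatocyte, Kupffer cell and stellate cell lists. They were apart, and higher in the knockout, for the p53, endothelial, and lymphocyte and neutrophil lists. In the last of these only Ms4a1 and Ptprc had a value, and no marker of neutrophils or of T cells alone had one. Of 11 tested targets of the damage-responsive factor p53, 2 rose (Ccng1, log2 difference 1.07 ± 0.15, and Phlda3, 1.05 ± 0.14, SE), with a median of 0.10 and 8 of 11 above 0. Of all tested genes 2.14% were called higher. At an unadjusted p under 0.05 there were 3 higher and 1 lower, Bbc3 (log2 difference -0.50 ± 0.17 SE, adjusted p = 0.133). At that level 10.1% of all tested genes were higher. Of 7 tested S phase and proliferation genes limma called none (1 higher and 1 lower at an unadjusted p under 0.05), with 6 of 7 above 0. Summed signals, over the 11 genes with a value, were 2190.0 to 2686 in the knockout and 2112 to 2248 in wild type. Top2a read 110 to 155.1 in the knockout and 53.9 to 91.8 in wild type (log2 difference 0.68 ± 0.22 SE, adjusted p = 0.116) and, like Brca1, reached the minimum signal through its knockout values. Rrm2 lay the other way, at 74.3 to 163.6 against 140.7 to 240.8 (log2 difference -0.71 ± 0.26 SE, adjusted p = 0.18). Its probe set carries the suffix x described above. In addition, 1 of the 2 probe sets of Cdc20, which was not the brighter, rose (log2 difference 0.91 ± 0.20 SE, adjusted p = 0.0329). That probe set reached the minimum signal through its knockout values, with means of 195.4 in the knockout and 98.6 in wild type. Hepatocyte markers were high in all samples, with Alb between 21282 and 27522 and Ttr between 21583 and 26801 on its brightest probe set, and none of 8 was called by limma. Their median difference was -0.13, with 5 of 8 below 0. Groups were apart for 3, Hnf4a, Pck1 and Tat, all lower in the knockout on their brightest probe set. Of all tested genes 10.1% were apart in that direction. Tat alone had an unadjusted p under 0.05 (log2 difference -0.42 ± 0.12 SE, adjusted p = 0.0803).

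Of 9 tested Kupffer cell and macrophage markers, all had differences above 0 and limma called none. At an unadjusted p under 0.05, 4 were higher, against 10.1% of all tested genes. Their summed signals were 6142 to 8248 in the knockout and 4446 to 6239 in wild type. Endothelial markers summed to 2826 to 3605 and 2358 to 2771 (limma called 0 of 7, with 3 higher and 1 lower, Lyve1, at an unadjusted p under 0.05). Lyve1 had a log2 difference of -0.56 ± 0.22 (SE; adjusted p = 0.202 in limma). It reached the minimum signal through its wild-type values, with means of 88.1 in the knockout and 134.8 in wild type. The 6 stellate cell markers with a value summed to 2882 to 3195 and 2373 to 3428. Of 3 tested, 1 rose, Rgs5 (log2 difference 0.71 ± 0.15 SE, adjusted p = 0.0251), where 2.14% of all tested genes were called higher. Another, Col3a1, lay the other way with overlapping groups (log2 difference -0.46 ± 0.24 SE, adjusted p = 0.35). Of the 12 lymphocyte and neutrophil markers 2, Ms4a1 and Ptprc, were tested. They summed to 311.5 to 331.6 in the knockout and 233 to 295.2 in wild type (limma called 0, with 1 at an unadjusted p under 0.05). The 6 cholangiocyte markers were not analysed here. No marker with a value was at 0 in any sample. Atp7b itself read 184.9 to 240.5 in the knockout and 241 to 299.7 in wild type (log2 difference -0.27 ± 0.16 SE, adjusted p = 0.407); where its probe set lies relative to the disruption is not known here, so its signal does not check the genotype.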

How the data were processed

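Liver RNA of 3 ATP7B KO and 3 wt samples was measured on 1 array each. The deposited table holds linear intensity values, which per the labels are MAS 5.0 signals scaled on each array to a target average of 350. The sources used here do not give the basis on which its 11811 probe sets were chosen. No detection calls were used. MAS 5.0 subtracts mismatch signals, so low signals, such as those of many repair genes, are noisy. Medians were 330.8 to 342.8 per array; the number of arrays limits the precision. At most 0.0847% of values were identical between arrays.

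After removal of 33 controls and 1158 probe sets with a mean signal under 100, log2(signal + 16) was fitted for 10620 with limma (lmFit, eBayes with trend, two-sided, Benjamini-Hochberg; limma 3.58.1, R 4.3.3). Log2 differences and folds are on that scale, which understates changes of low signals. Intervals use limma's moderated standard errors. Gene names came from the platform annotation, and 418 probe sets with several symbols stayed unnamed. The brightest tested probe set represented a gene. Every member was described, and from the wider list called genes, Chek2 and Brca2 by rule. Wee1, Cul4a, Rpa1, Top2a, Rrm2, Bbc3, Rgs5, Col3a1, Lyve1, Hnf4a, Pck1, Tat and the Cdc20 probe set were chosen after their values were seen. Members and lists were chosen with earlier results of these data known. The fit was tested on simulated data. Alternatives are listed below. Figures used Python 3.11.15 with matplotlib 3.10.9.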

Additional observations from a re-analysis of the deposited data

How the results depend on the processing

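The alternatives were quantile normalization, centring of arrays, a pseudocount of 1 or 64, no minimum signal or one of 200, eBayes without trend or robust, array weights, a threshold of 0.10, the mean of a gene's probe sets, the same with no minimum signal (added after the data were seen), and leaving out each sample. No paired analysis was possible because the groups share no sample numbers. All probe sets called ranged from 175 to 469 with 1 sample left out and were 786 at a threshold of 0.10. Members called higher were 0 at a minimum of 200 and with the mean over probe sets and no minimum, and 0 to 1 with 1 sample left out; none was called lower under any setting run. Other repair genes called higher were 1 after centring and without trend, 4 at 0.10, and 0 to 1 with 1 sample left out; those called lower were 0 at a minimum of 200, 2 with array weights, 3 at 0.10, and 1 to 2 with 1 sample left out. Pathway medians (log2) that moved by more than the spread between samples were nucleotide excision (0.12 at a minimum of 200, 0.18 with the mean over probe sets and no minimum), double-strand break (0.20 with no minimum, and 0.20 with the mean as well), translesion (0.22 after quantile normalization, 0.22 at a pseudocount of 64, 0.30 with the mean over probe sets, with or without a minimum) and base excision (0.058 without WT4; -0.34 to 0.058 over all samples left out in turn, of which that without WT4 alone moved so far). A higher minimum tests fewer genes, and no minimum adds Mre11a to double-strand break repair and Ercc1 to nucleotide excision. The cause of the other shifts was not tested. Of 17 members, 10 kept the sign of their difference under every alternative run, and Brca1 had an adjusted p of 0.0127 to 0.11.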
